A study of Mus musculus with 10 samples.

Results

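Chromatin accessibility and the promoter mark H3K4me3 were described at 10 genes that mark astrocytes and radial glia, *Gfap*, *S100b*, *Aqp4*, *Gja1*, *Slc1a3*, *Slc1a2*, *Glul*, *Aldh1l1*, *Aldoc* and *Clu*, in primary cultures of mouse neural stem and progenitor cells (NSPCs). The genes are those of the GENCODE M21 annotation of mm10, and all 10 of 10 were found among 21938 protein-coding genes. A peak belonged to a gene if it lay in the gene body or within 50 kb of it and if the nearest transcription start site (TSS) of any protein-coding gene was one of that gene. This gave 388 ATAC-seq peaks, which merged into 91 sites out of 108367 sites in the genome. A nearest TSS is a rule of position and does not show that a site acts on the gene.

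The cells came from brains of C57BL/6 mice at postnatal day 5. Activated NSPCs grew with FGF2 and EGF at 20 ng/ml, and quiescent NSPCs received 20 ng/ml FGF2 with 25 ng/ml BMP4 and no EGF, for 4 days by the sample labels (the methods give a shorter time for ATAC-seq). Reactivated NSPCs were taken back to the activating medium for 9 to 12 days after the BMP4 treatment. ATAC-seq, in which the Tn5 transposase tags open DNA, had 2 libraries per state from early-passage cultures, and H3K4me3 ChIP-seq had 1 library each for quiescent and activated NSPCs. The cultured cells are not of a single type, so that fewer cells with an open site and less opening per cell cannot be told apart. With 2 libraries against 2, an exact two-sided permutation test cannot go below p = 0.333, so the values are described without a test.

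Radial glia are the stem cells of the embryonic brain, and adult neural stem cells and astrocytes descend from them and share many of their genes. BMP signalling through SMAD factors acts with JAK-STAT signalling in the induction of astrocyte genes, whereas FGF2 keeps precursors dividing. The genes here serve the astrocyte cytoskeleton and calcium binding (*Gfap*, *S100b*), water and gap-junction channels (*Aqp4*, *Gja1*), the uptake of glutamate and its conversion to glutamine (*Slc1a3*, *Slc1a2*, *Glul*), folate and sugar metabolism (*Aldh1l1*, *Aldoc*) and a secreted chaperone (*Clu*).

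The lists hold 47037 to 106830 peaks per ATAC-seq library on chromosomes 1 to 19, X and Y. Activated replicate 2 had the fewest peaks and both reactivated libraries the most, at 106270 and 106830. The fold enrichment of a peak is the pileup of reads at its summit over the background of the same library, so that 1 means no enrichment. The lowest pileup that was called as a peak was 16 or 17 overlapping reads in 5 libraries and 25 in quiescent replicate 2, whose background of 12.1 reads was also higher than the 6.01 to 6.61 of the others. Accessibility below those pileups was not detectable, and "no peak" here does not mean closed chromatin. The median fold enrichment over sites that had a peak in all 6 libraries was 5.58 to 7.41 in quiescent and activated libraries and 10.4 and 10.8 in the reactivated ones.

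Of the sites near the astrocyte genes that told quiescent and activated NSPCs apart by presence of peaks, most were on the quiescent side, and the share common to quiescent and activated NSPCs was near that of the genome. Of the 91 sites, 50 had a peak in at least 2 of the 4 quiescent and activated libraries. Among these, 39 were shared, meaning that each state had a peak in 1 library or in both, 10 were quiescent-specific, with a peak in both quiescent and neither activated library, and 1 was activated-specific. Shared sites made up 78% of the 50 beside 75.3% of such sites in the genome. Quiescent-specific sites made up 20.0% of the 50, where they were 14.7% of such sites in the genome, and the activated-specific site made up 2.00%, where the genome had 9.97%. More than 1 kb from any TSS, 7 of 36 sites (19.4%) were quiescent-specific beside 20.0% in the genome, and 1 of 36 (2.78%) was activated-specific beside 12.8%. Within 1 kb of a TSS, 3 of 14 sites (21.4%) were quiescent-specific beside 3.09% in the genome, 2 of them at internal starts of *Slc1a2* and 1 at the *Slc1a3* TSS, and 0 were activated-specific beside 3.76%. The share of quiescent-specific sites was therefore near the background away from TSSs and above it at TSSs, on 3 sites of 2 genes. None of these 3 sites had a −log10 q of at least 10 in both quiescent libraries. The values were 9.28 and 18.9 at *Slc1a3*, and 8.59 and 3.90, and 4.72 and 2.69 at *Slc1a2*. Without activated replicate 1, which leaves the shortest list alone to stand for the activated state, 18 sites were quiescent-specific, and without activated replicate 2, 4 were activated-specific. Shares over all sites were not computed with a library left out, so these counts have no background.

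The remaining 41 sites had a peak in at most 1 quiescent or activated library. Of them, 15 had a peak in both reactivated libraries and in no other, which is 16.5% of the 91 sites beside 14.8% of all sites. When every list was limited to as many of its strongest peaks as the shortest list holds, the count was 1 in place of 15. That limit also drops weak peaks, and the part of list length in this count was not tested. With a single reactivated library, 27 sites (replicate 2) or 22 sites (replicate 1) had a peak in no quiescent or activated library. Shares over all sites were not computed for the limited lists or for a single reactivated library. The number of member sites with a peak was 48 in each quiescent library, 41 and 30 in the activated and 70 and 78 in the reactivated libraries. By position, 22 of the 91 sites lay within 1 kb of a TSS, 35 in introns, 21 upstream and 13 downstream of their genes. *Slc1a3*, *Aldh1l1* and *Slc1a2*, which are long genes, had 20, 19 and 17 sites, whereas *Gfap* and *Aldoc* had 2 each.

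**Figure D1:**
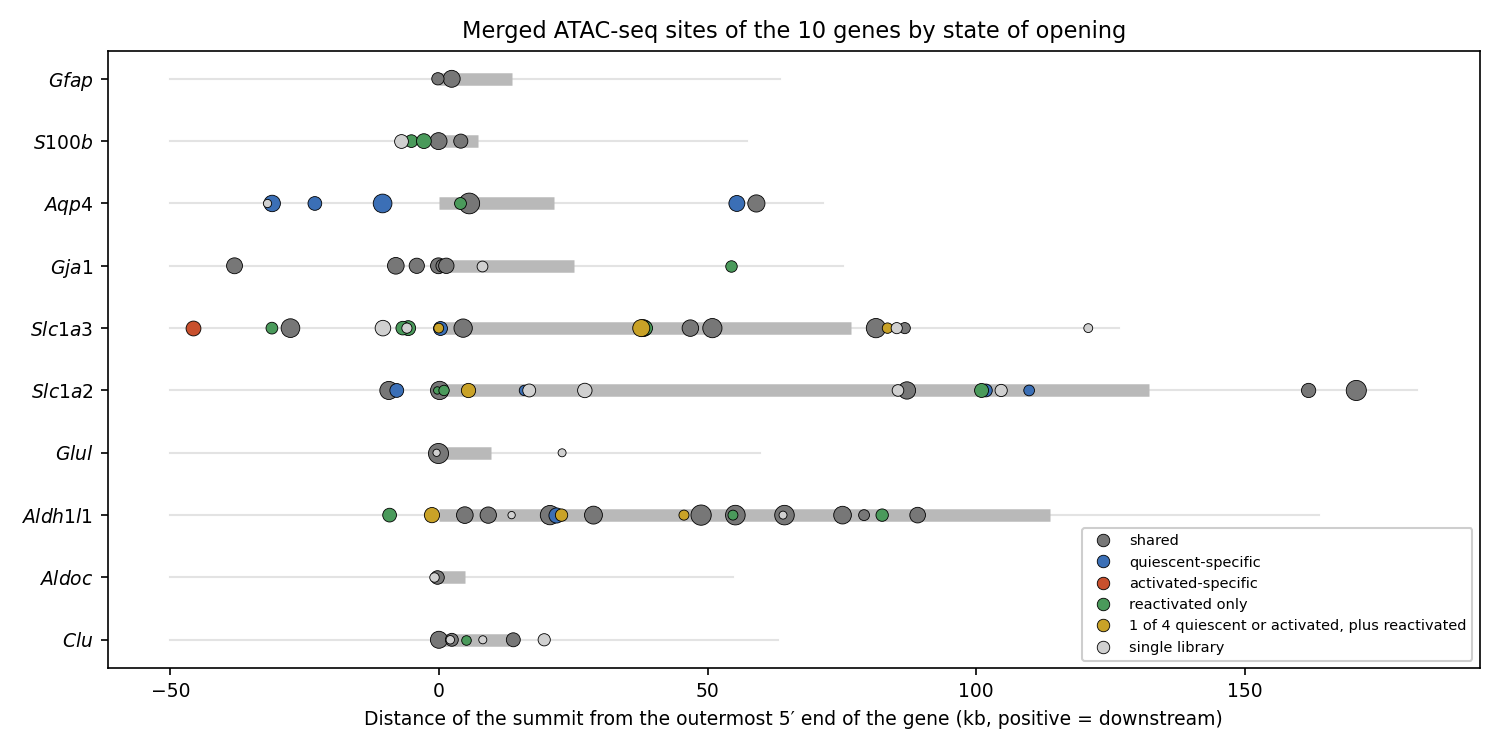
Positions of the 91 sites in kb from the outermost annotated 5′ end of each gene (thick grey bar, gene body; thin line, 50 kb on either side). Point colour gives the class by presence of peaks and point size the mean percentile of fold enrichment in the lists that hold the site; quiescent-specific sites lie at *Aqp4*, *Slc1a3*, *Slc1a2* and *Aldh1l1*.

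*Gfap*, which encodes the intermediate filament protein used to stain astrocytes, had higher fold enrichment in activated than in quiescent NSPCs at its main upstream site. This site, chr11:102898314-102898952 in mm10, lies 1.33 kb upstream of the TSS of a protein-coding transcript at position 102897200, within an intron of a longer non-coding transcript. The quiescent libraries had a fold enrichment of 2.79 and 3.55 there, the activated 6.70 and 5.36 and the reactivated 10.3 and 10.8. The 3 states did not overlap, the activated mean was 1.90 times the quiescent mean, and the ratio was 1.61 after each library was divided by its median over sites open in all 6. The pileup behind these values was 22 and 47 overlapping reads in the quiescent libraries, 59 and 41 in the activated, and 163 and 121 in the reactivated. A second site, chr11:102900887-102901189 at the TSS of the longer non-coding transcript, had a fold enrichment of 4.30 in quiescent replicate 1, 4.07 and 2.73 in the activated libraries and 2.83 in reactivated replicate 1, with no peak in quiescent and reactivated replicate 2. No library had an ATAC-seq peak within 1 kb of the protein-coding *Gfap* starts at 102897131 and 102897200, and neither state had an H3K4me3 region at any *Gfap* TSS.

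The upstream *Gfap* site holds a match to the STAT motif TTCNNNGAA, the kind of element through which STAT3 is known to drive *Gfap* in response to cytokines such as LIF and CNTF. The match, chr11:102898638-102898646, lies about 1.4 kb upstream of the start at 102897200. It was within 100 bases of the summit in 3 of the 6 libraries, and the 6 summits lay 76 to 159 bp from it. Of the windows of up to 100 bases on each side of the summit, 5.39% of all sites held this motif. The *Gfap* site is not among them, since the match lies 108 bp from the summit of the site's strongest peak. The match was found by a search of the whole site of 639 bp, for which no share over all sites was computed. The window around the summit of reactivated replicate 1, chr11:102898466-102898666, is printed because it shows this match, and it was chosen after the values were seen. It is given 5′ to 3′ on the minus strand, on which *Gfap* is read, with the STAT match in capitals.
Gfap upstream site: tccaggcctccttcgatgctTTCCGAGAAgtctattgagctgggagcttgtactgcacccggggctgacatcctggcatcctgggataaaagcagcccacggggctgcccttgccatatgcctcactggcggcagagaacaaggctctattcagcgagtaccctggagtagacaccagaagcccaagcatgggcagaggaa

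*S100b*, which encodes a calcium-binding protein of mature astrocytes, differed between quiescent and activated NSPCs at its own promoter in both assays. The promoter site, chr10:76253488-76253972 around the single annotated TSS at 76253853, had a fold enrichment of 6.90 and 5.39 in the quiescent libraries. In the activated libraries it was 2.52 in replicate 1 with no peak in replicate 2, and in the reactivated ones 8.14 and 7.24. The pileup was 65 reads (exact Poisson 95% interval 50.2 to 82.8) and 73 reads (57.2 to 91.8) in the quiescent libraries and 18 reads (10.7 to 28.4) in activated replicate 1, so these intervals, which cover counting error only, do not overlap on pileups not scaled for depth. Divided by the genome-wide background of each library, the pileups were 9.84 and 6.04 in quiescent and 2.75 in activated NSPCs. An intronic site 4.07 kb downstream of the TSS, chr10:76257804-76258372, had 3.96 and 3.94 in quiescent, 2.85 in activated replicate 2 alone and 4.46 and 4.16 in reactivated NSPCs.

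H3K4me3 at the *S100b* promoter covered 2.71 kb with a fold enrichment of 11.3 over input in quiescent NSPCs, against 0.443 kb with 2.87 in activated NSPCs. The ratio of 3.92 was exceeded by 2 of 15602 pairs of overlapping H3K4me3 regions in the genome, a ranking of 1 library against 1. The reactivated libraries alone had further peaks 2.79 kb upstream (3.50 and 6.19) and 5.12 kb upstream (3.37 and 4.17). The part of the promoter window that lies before the TSS, chr10:76253688-76253852 on the plus strand, is printed because a motif searched for matched in it. The peak over it was weak or absent in activated NSPCs. Promoter windows without a match were not printed. The printed part holds 3 matches to TTGGC, the short NFI element, in either orientation (capitals), a motif that 44.7% of all windows around summits held at least 1 time. The share of windows with 3 matches was not computed.
S100b promoter: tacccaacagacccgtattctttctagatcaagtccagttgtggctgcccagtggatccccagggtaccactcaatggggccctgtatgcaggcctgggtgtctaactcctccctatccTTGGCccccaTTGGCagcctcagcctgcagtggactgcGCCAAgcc

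*Gja1*, which encodes connexin 43, the main gap-junction protein of astrocytes, had 6 shared sites and no state-specific one. The annotated starts of the gene, from position 56377330 to 56379088 on chromosome 10, lay at 3 sites that covered 5 of the 6 of them, and the start at 56377545 fell between the first and the second site. The first, chr10:56377144-56377463, had 4.75 and 4.74 in quiescent, 5.03 in activated replicate 2 alone, and 4.65 and 3.71 in reactivated NSPCs. The second, chr10:56377869-56378507, had 2.56 and 3.36, 3.02 and 3.74, and 5.41 and 3.86 in the same order, and was the only *Gja1* site with a peak in all 6 libraries. The third, chr10:56378587-56379281, had 2.85 and 3.36 in quiescent, 4.40 in activated replicate 1 alone, and 6.22 and 7.34 in reactivated NSPCs. Upstream sites 38.0 and 8.02 kb from the TSS had peaks in both quiescent libraries (4.86 and 4.66, and 5.39 and 4.74) but only in replicate 1 of the activated state (3.58 and 3.98). Activated replicate 2 lacked a peak at 4 of the 6 shared sites, and the activated values that were called lay above the quiescent ones at some sites and below them at others. H3K4me3 at the TSS had a fold enrichment of 42.1 in quiescent and 34.6 in activated NSPCs. The window of the first promoter site up to the TSS, chr10:56377145-56377329 on the plus strand, is printed because it holds a match to the AP-1 motif TGAGTCA (capitals), which on both strands and with TGACTCA was found in 5.49% of all windows.
Gja1 promoter: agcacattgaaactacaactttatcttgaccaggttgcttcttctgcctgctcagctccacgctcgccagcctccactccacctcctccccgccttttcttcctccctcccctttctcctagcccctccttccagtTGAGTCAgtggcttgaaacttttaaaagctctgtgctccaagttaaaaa

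*Aqp4*, which encodes the water channel of astrocyte endfeet, had quiescent-specific sites at 4 of the 6 sites that had a peak in at least 2 quiescent and activated libraries. The strongest, chr18:15421140-15421846 and 10.5 kb upstream of the outermost TSS, had a fold enrichment of 6.93 and 6.53 in the quiescent libraries, no peak in the activated, and 8.0 and 7.3 in the reactivated. The other 3 had no peak in activated NSPCs and a peak in reactivated replicate 2 alone among the reactivated libraries. At chr18:15441793-15442161, 31.0 kb upstream, the values were 5.92 and 7.11 in quiescent and 3.19 in reactivated replicate 2. At chr18:15355128-15356053, 44.5 kb downstream of the nearest TSS, they were 6.05 and 4.41, and 3.37. At chr18:15433863-15434228, 23.1 kb upstream, they were 4.60 and 3.36, and 2.79.

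A site in an *Aqp4* intron, chr18:15405104-15405490, was among the strongest of the 91 and was open in every library, with 15.1 and 14.1 (quiescent), 13.7 and 14.3 (activated) and 18.3 and 18.8 (reactivated), so the quiescent and activated values overlapped. After scaling by the library median they did not, and the quiescent mean was 1.21 times the activated mean. The site lies 1.57 kb upstream of the start of the transcript at 15403758. No library had a peak within 1 kb of that start or of the outermost start at 15410982, and the reactivated libraries alone had a peak (3.68 and 3.45) near the start at 15408088. The H3K4me3 region at the start at 15403758, chr18:15401977-15403724, was found in quiescent NSPCs alone, at 1.75 kb and a fold enrichment of 4.65, and a second quiescent-only region of 0.495 kb (3.51) lay downstream of the gene, next to the shared site chr18:15351770-15352000 (5.22 and 4.44 in quiescent, 4.91 in activated replicate 1 alone).

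*Slc1a3*, which encodes the glutamate transporter GLAST of radial glia and astrocytes, had a quiescent-specific site at its TSS and the only activated-specific site of the 10 genes. The TSS site, chr15:8710372-8710597, had 3.80 and 4.32 in quiescent, no peak in activated, and 3.24 and 3.74 in reactivated NSPCs, and it overlapped the H3K4me3 region of both states. A neighbouring peak over the outermost start at 8710764 was found in quiescent replicate 1 (2.69) and reactivated replicate 2 (3.21). The pileup at the TSS site was 36 and 62 reads in the quiescent and 61 and 60 in the reactivated libraries. The activated-specific site, chr15:8756347-8756780 and 45.8 kb upstream, had 3.18 and 3.71 in activated and 5.87 and 6.38 in reactivated NSPCs.

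*Slc1a3* had 6 sites with a peak in all 6 libraries, and 3 of them were higher in activated NSPCs. At chr15:8659392-8660651, in an intron, the fold enrichment was 6.54 and 6.72 (quiescent), 9.60 and 9.09 (activated) and 8.19 and 9.50 (reactivated). At chr15:8705984-8707099, in an intron 3.33 kb from a TSS, it was 4.87 and 4.97, 7.49 and 7.05, and 8.08 and 8.80. At chr15:8629275-8629935, downstream of the gene, it was 7.48 and 6.48, 8.61 and 8.91, and 9.22 and 9.31. At these 3 sites the quiescent and activated values did not overlap, with ratios of activated to quiescent means of 1.41, 1.48 and 1.25. The first and second kept this order after scaling by the library median, and the downstream site did not. A site 27.6 kb upstream, chr15:8738205-8738547, had overlapping values of 7.76 and 5.43 (quiescent) and 6.90 and 4.28 (activated), with 11.9 and 14.4 (reactivated). After scaling, this site and the intronic site chr15:8663605-8664139 were higher in quiescent NSPCs, so that 2 of the 6 sites were then higher in each state. An intronic site, chr15:8672527-8672930, had 3.13 to 5.13 in the 4 quiescent and activated libraries and 11.3 and 10.6 in the reactivated. Reactivated-only sites included chr15:8672236-8672492 (5.62 and 3.72) and chr15:8716382-8716592 (3.74 and 5.81). H3K4me3 at the TSS had nearly equal fold enrichment, 36.6 in quiescent and 35.4 in activated NSPCs, over 7.87 and 4.80 kb. The window around the summit of the activated-specific site, chr15:8756512-8756712 on the minus strand, on which *Slc1a3* is read, is printed as the state-specific site of the gene with the highest mean percentile over the libraries that hold it (45.3 against 38.5 at the TSS site, and ahead of it only by its reactivated values), and none of the motifs searched matched in it.
Slc1a3 activated-specific site: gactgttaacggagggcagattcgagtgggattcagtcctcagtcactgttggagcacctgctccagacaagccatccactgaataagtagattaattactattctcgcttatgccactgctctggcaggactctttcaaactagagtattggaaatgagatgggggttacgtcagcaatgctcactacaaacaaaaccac

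*Slc1a2*, which encodes GLT-1, the main glutamate transporter of mature astrocytes, had 4 quiescent-specific sites and a promoter with higher values in activated NSPCs. At the promoter, chr2:102658525-102659370, the fold enrichment was 4.95 and 4.20 (quiescent), 7.97 and 6.12 (activated) and 9.30 and 10.5 (reactivated), and the activated mean was 1.54 times the quiescent mean (1.31 after scaling). The reactivated libraries alone had additional peaks on either side of it, at chr2:102658259-102658522 (2.22 and 2.71) and chr2:102659534-102659714 (3.17 and 3.28). The H3K4me3 fold enrichment over this promoter was 40.8 in quiescent and 41.8 in activated NSPCs, and the region was 3.36 kb wide in quiescent and 2.00 kb in activated NSPCs. A site 10.1 kb from an internal TSS, chr2:102745216-102745971, went the other way, with 7.11 and 5.04 (quiescent), 5.04 and 2.85 (activated) and 9.50 and 10.8 (reactivated). Its lowest quiescent and highest activated values differed only beyond the digits printed, and its pileups over the genome-wide background overlapped between the states. The strongest *Slc1a2* site, chr2:102829298-102829543, lies within the neighbouring gene *Cd44*, 68.2 kb from the nearest *Slc1a2* TSS, and had 9.47 and 7.64 (quiescent), 13.0 and 14.1 (activated) and 11.1 and 12.4 (reactivated).

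The 4 quiescent-specific *Slc1a2* sites were weak. The first, chr2:102650531-102651007 and 7.84 kb upstream, had 4.86 and 2.75 in quiescent and 3.80 and 3.73 in reactivated NSPCs. The second, chr2:102760290-102760590, lies 0.706 kb from an internal coding start and had 4.08 and 2.52 in quiescent and 3.47 in reactivated replicate 1. The third, chr2:102674343-102674741, 0.903 kb from a non-coding start, had 3.14 and 2.29 in quiescent and 3.19 in reactivated replicate 2. The fourth, chr2:102768351-102768610, had 2.63 and 2.75 in quiescent NSPCs and no peak elsewhere. The window of the first site, chr2:102650716-102650916 on the plus strand, is printed as the strongest state-specific one, with 1 match to the short NFI element and 1 to a SOX motif in capitals near its 3′ end.
Slc1a2 quiescent-specific site: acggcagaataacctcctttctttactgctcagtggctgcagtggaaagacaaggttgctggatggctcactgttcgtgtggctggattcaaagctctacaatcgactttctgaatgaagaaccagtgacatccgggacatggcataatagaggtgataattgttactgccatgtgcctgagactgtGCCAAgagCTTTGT

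*Glul*, which encodes glutamine synthetase, had its accessibility at the promoter, and the quiescent and activated values overlapped before scaling by the library median. The site chr1:153899625-153900691 had 9.14 and 10.4 (quiescent), 10.9 and 8.49 (activated) and 12.6 and 14.3 (reactivated), and after scaling the quiescent values were the higher ones without overlap, by a ratio of means of 1.19. The 2 other *Glul* sites were peaks in a single reactivated library each (2.52 and 2.67). H3K4me3 over the promoter had the highest fold enrichment of the 10 genes, 64.7 in quiescent and 43.4 in activated NSPCs over nearly equal widths of 2.96 and 2.92 kb, and the ratio of 1.49 was exceeded by 1051 of the 15602 pairs. *Aldoc*, which encodes the brain form of the glycolytic enzyme aldolase, likewise had a promoter site, chr11:78322485-78323342, where the quiescent values (3.80 and 3.29) overlapped the activated values (3.05 and 3.42) and the reactivated libraries had 4.46 and 4.54. After scaling, the quiescent values of this site were also higher without overlap, by 1.26 times. Its H3K4me3 was 31.5 in quiescent and 23.2 in activated NSPCs. *Clu*, which encodes the secreted chaperone clusterin, had 6.31 and 3.59 (quiescent), 5.01 and 5.12 (activated) and 7.25 and 5.67 (reactivated) at its main promoter, chr14:65968290-65968810. A second *Clu* promoter site, chr14:65970768-65971002, had 2.57 and 2.67 in quiescent, 3.09 in activated replicate 1 alone and 4.10 and 7.03 in reactivated NSPCs. An H3K4me3 region at the main *Clu* promoter was called in quiescent NSPCs alone, and it was short and weak (0.347 kb, 4.72).

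*Aldh1l1*, which encodes a folate enzyme that marks astrocytes across the brain, had sites that were higher in activated NSPCs and others that were higher in quiescent NSPCs. The coding promoter, chr6:90550582-90550918, had 7.15 and 6.73 (quiescent), 9.46 and 7.61 (activated) and 11.8 and 13.7 (reactivated). By pileup over the genome-wide background, the quiescent and activated values of this promoter overlapped. An intronic site 15.6 kb upstream of the coding start, chr6:90534746-90535620, had 7.36 and 10.7, 13.7 and 14.2, and 13.5 and 14.0 in the same order. An H3K4me3 region that overlaps the edge of this intronic site was 3.48 in quiescent and 10.4 in activated NSPCs, and only 11 of the 15602 pairs had a lower ratio of quiescent to activated. This region ends at 90534858 in quiescent and 90534969 in activated NSPCs, so the summit of the site at 90535230 lies outside it. At the coding promoter itself, H3K4me3 was 27.3 in quiescent and 23.8 in activated NSPCs. Further sites higher in activated NSPCs were chr6:90515001-90515451 (5.13 and 3.67 against 8.01 and 5.99) and chr6:90561236-90561736 (5.04 and 3.89 against 6.01 and 7.59). After scaling by the library median, the coding promoter and chr6:90515001-90515451 kept this order. The intronic site chr6:90534746-90535620 (1.23 and 1.92 against 1.85 and 2.33) and chr6:90561236-90561736 then had overlapping values.

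On the quiescent side, chr6:90506882-90507323, 20.7 kb from the outermost 5′ end, had 7.33 and 8.59 (quiescent), 7.27 and 6.42 (activated) and 11.4 and 13.5 (reactivated). The neighbouring quiescent-specific site, chr6:90508148-90508519, had 2.68 and 3.88 in quiescent, no peak in activated, and 5.20 and 6.46 in reactivated NSPCs. A weak site, chr6:90565410-90565692, was nominally higher in quiescent NSPCs (3.03 and 3.06 against 2.73 and 2.92). Neither of the sites open in both states was higher in quiescent NSPCs by pileup over the genome-wide background. The window around the summit of the quiescent-specific site, chr6:90508177-90508377 on the plus strand, is printed as the only state-specific site of the gene, and none of the motifs searched matched in it.
Aldh1l1 quiescent-specific site: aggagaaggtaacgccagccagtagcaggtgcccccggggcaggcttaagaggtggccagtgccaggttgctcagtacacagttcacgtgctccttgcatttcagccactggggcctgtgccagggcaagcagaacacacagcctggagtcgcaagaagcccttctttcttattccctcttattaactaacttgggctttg

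**Figure D2:**
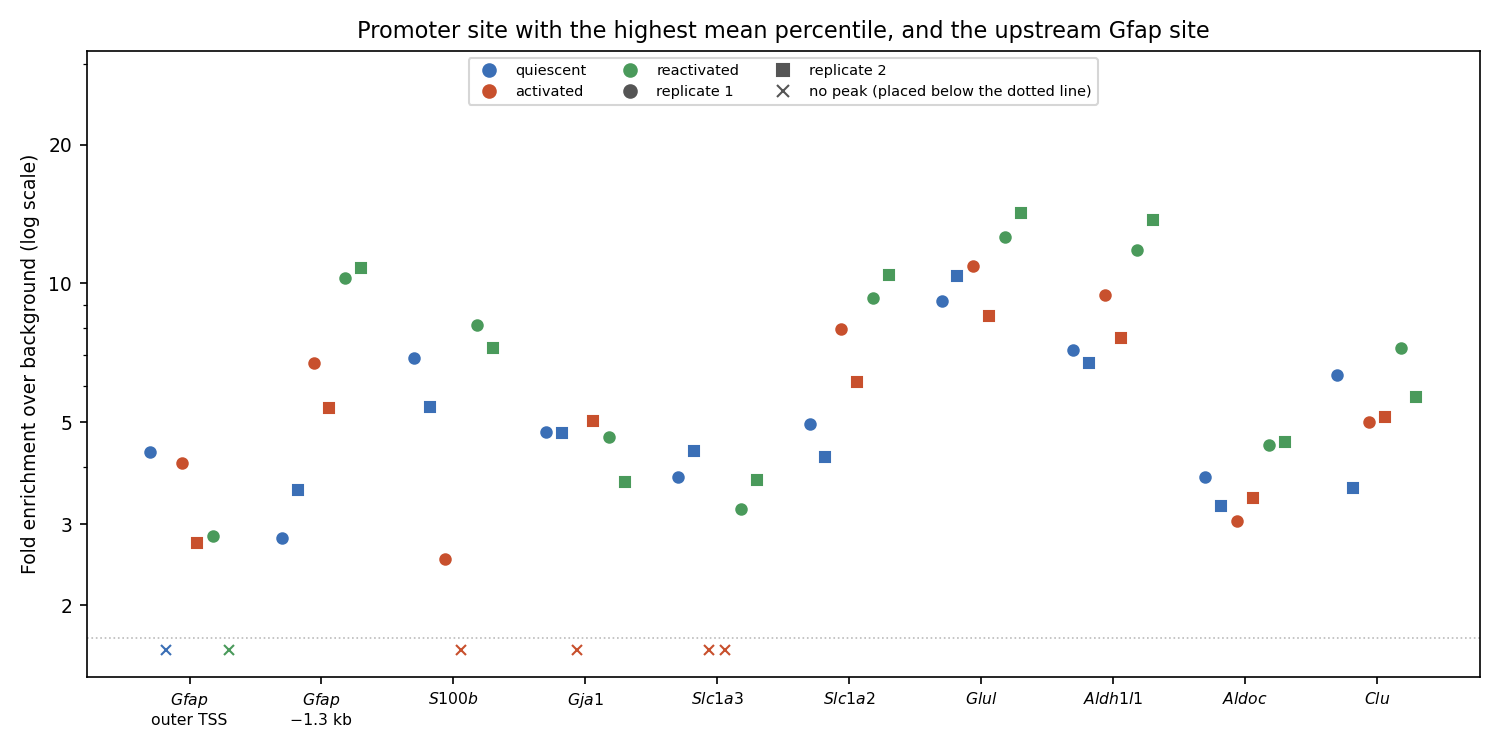
Fold enrichment over background (log axis) of the promoter site with the highest mean percentile at each gene, and of the *Gfap* site 1.33 kb upstream, in each of the 6 libraries (colour, state; circle, replicate 1; square, replicate 2; cross, no peak). *S100b* and *Gja1* lack a peak in 1 and *Slc1a3* in both activated libraries at the site shown, and *Aqp4* has no site whose summit lies within 1 kb of a TSS and is not shown.

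Promoters were open in most libraries. An ATAC-seq peak lay within 1 kb of a TSS in all 6 libraries at 6 of the 10 genes (*Gja1*, *Slc1a2*, *Glul*, *Aldh1l1*, *Aldoc* and *Clu*), beside 53.2% of all protein-coding genes. By library, such a peak was found at 9 and 8 of the 10 genes (quiescent), at 8 and 7 (activated) and at 10 and 9 (reactivated). The genes that lacked it in an activated library were *Aqp4* and *Slc1a3* in both and *S100b* in replicate 2, whereas *Aqp4* also lacked it in both quiescent libraries and *Gfap* in quiescent replicate 2.

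**Figure D3:**
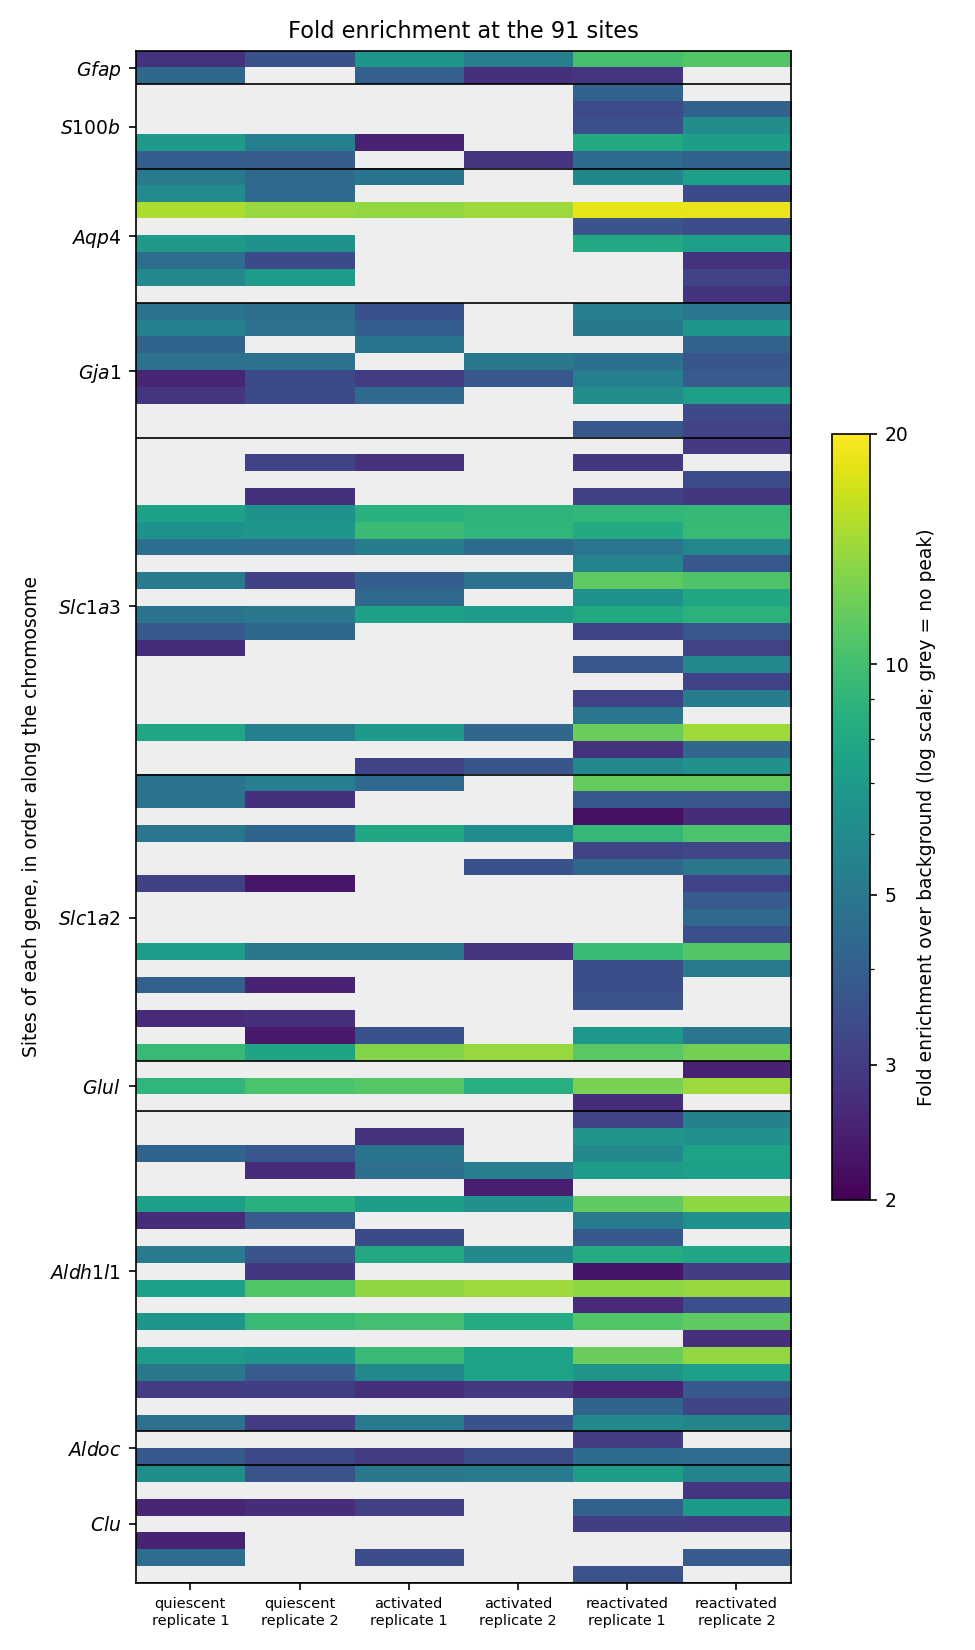
Fold enrichment (log colour scale) at the 91 sites, grouped by gene and ordered along the chromosome, in each of the 6 libraries; light grey marks no peak. Both reactivated columns hold more peaks, 70 and 78 sites, than the quiescent (48 and 48) and activated (41 and 30) columns.

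The 10 quiescent-specific sites belonged to 4 genes, *Aqp4* and *Slc1a2* with 4 each and *Slc1a3* and *Aldh1l1* with 1 each. Of protein-coding genes with any site in at least 2 of the 4 libraries, 23.9% had a quiescent-specific site. With peaks at a −log10 q of at least 10, 7 sites were quiescent-specific, but not the same ones. Of the 10, the *Aqp4* sites 10.5 and 31.0 kb upstream and 44.5 kb downstream kept both quiescent peaks. The *Aqp4* site 23.1 kb upstream and those of *Slc1a2*, *Slc1a3* and *Aldh1l1* did not. The sites gained were at *S100b* and *Gja1*, shared sites whose activated peaks were below that limit. After reactivation, 4 of the 10 had a peak in both libraries, beside 55.0% of all quiescent-specific sites. These were the *Aqp4* site 10.5 kb upstream, the *Slc1a3* TSS site, the *Slc1a2* site 7.84 kb upstream and the *Aldh1l1* site. With a single reactivated library the number was 5 by replicate 1 and 8 by replicate 2, and without activated replicate 1 it was 12 of 18. Shares over all sites were not computed for these counts or for the stricter peaks. The *Aqp4* sites whose highest quiescent values were 6.05 and 7.11 had 3.37 and 3.19 in reactivated replicate 2. At the *Aldh1l1* site and the *Aqp4* site 10.5 kb upstream, both reactivated values were above both quiescent values before scaling. Divided by the library median, the *Aqp4* site had 1.16 and 1.17 in quiescent against 0.770 and 0.679 in reactivated NSPCs, the reverse order, and the *Aldh1l1* values overlapped (0.448 and 0.696 against 0.500 and 0.600). On that scale the *Slc1a3* and *Slc1a2* sites were also lower in both reactivated than in both quiescent libraries.

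**Figure D4:**
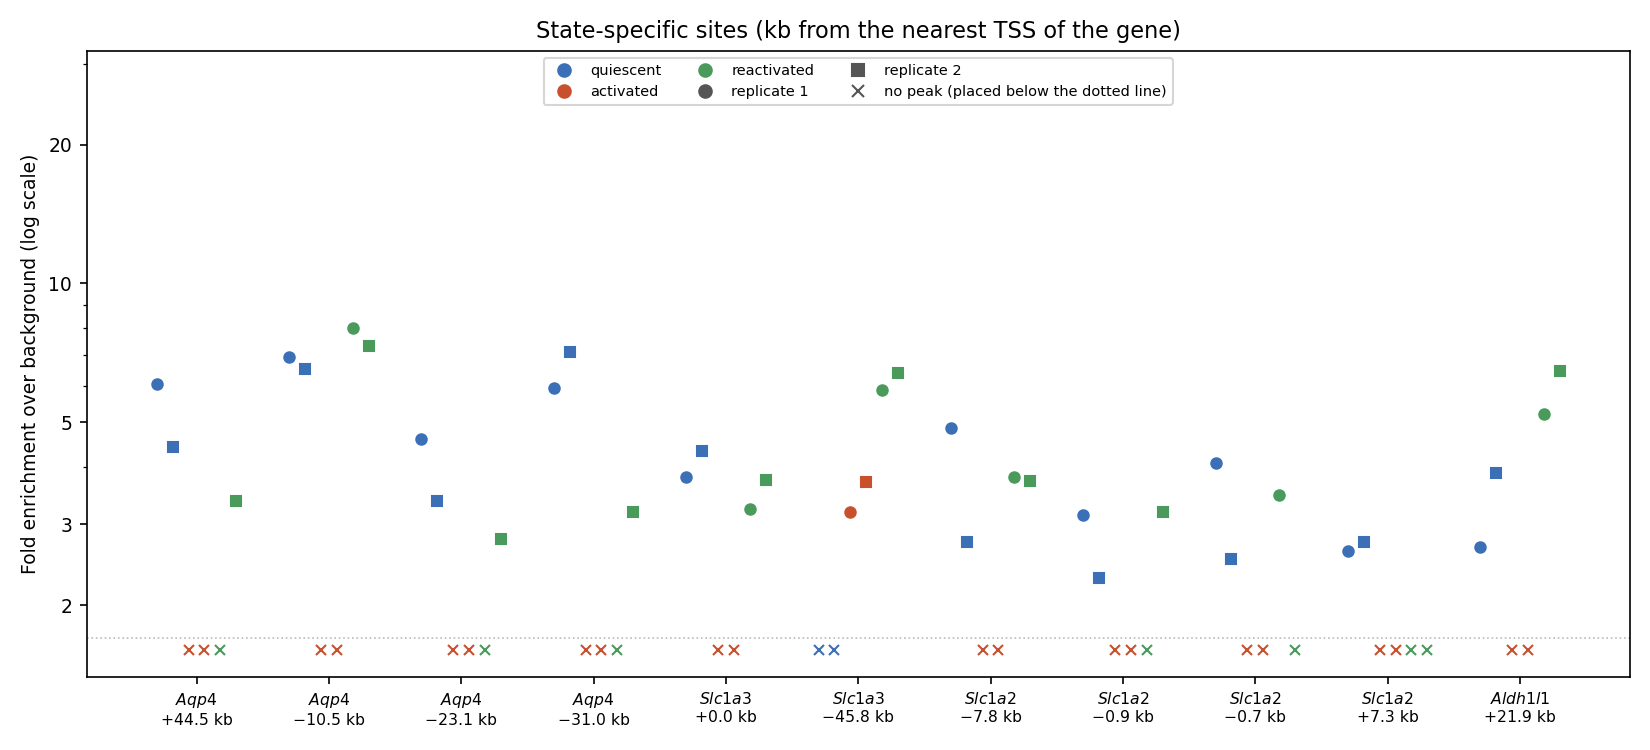
Fold enrichment (log axis) at the 10 quiescent-specific sites and the 1 activated-specific site in each of the 6 libraries (colour, state; circle, replicate 1; square, replicate 2; cross, no peak), labelled by gene and distance from its nearest TSS. The *Aqp4* site 10.5 kb upstream has peaks in both reactivated libraries, and 3 of the 4 *Aqp4* sites lack a peak in reactivated replicate 1.

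Among the 23 sites with a peak in both quiescent and both activated libraries, more had higher values in activated than in quiescent NSPCs. The activated values were higher without overlap at 10 sites (43.5%, beside 37.3% of all such sites), namely 4 at *Aldh1l1*, 3 at *Slc1a3*, 2 at *Slc1a2* and 1 at *Gfap*. The quiescent values were higher at 3 (13.0%, beside 11.6%), of which 2 were at *Aldh1l1* and 1 at *Slc1a2*. These shares were near the background. The balance moved with the scale on which libraries were compared, and the median fold enrichment over sites open in all 6 libraries was 7.41 and 6.12 in activated and 5.98 and 5.58 in quiescent NSPCs. Divided by that median, 7 sites were higher in activated (30.4%, beside 21.0%) and 8 in quiescent NSPCs (34.8%, beside 31.9%), and the 7 were all among the 10. The sites that stayed higher in activated NSPCs were those of *Gfap*, the *Slc1a2* promoter, the *Slc1a2* site in *Cd44*, 2 intronic *Slc1a3* sites and 2 *Aldh1l1* sites, the coding promoter among them. The 8 higher in quiescent NSPCs were the 3 named before and 5 whose values overlapped before scaling, the *Glul* and *Aldoc* promoters, the *Aqp4* intronic site and 2 *Slc1a3* sites. Without activated replicate 2, whose list was the shortest, 17 sites were higher in activated and 9 in quiescent NSPCs, and the count higher in quiescent NSPCs was also 9 without quiescent replicate 2 and 7 without activated replicate 1. A single library makes non-overlap easier to meet at any site, and shares over all sites were not computed with a library left out.

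In the reactivated libraries, 15 of the 23 sites open in all 6 libraries (65.2%) had higher values than in any other library, beside 72.8% of all such sites. After scaling, 2 remained (8.70%, beside 13.0%). These were the *Gfap* site 1.33 kb upstream and the *Slc1a3* intronic site chr15:8672527-8672930, whose reactivated means were 3.32 and 2.66 times the quiescent means before scaling and 1.80 and 1.46 times after it.

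Sites seen only in the reactivated state were weak at most genes. Besides those at *S100b*, *Slc1a3* and *Slc1a2*, *Aldh1l1* had them at chr6:90477119-90477367 (3.20 and 5.45) and chr6:90568831-90569075 (4.19 and 3.25), *Gja1* 52.6 kb downstream of its nearest TSS (3.74 and 3.19) and *Clu* in its gene body (3.1 and 3.0). In *Slc1a2*, an intronic one at chr2:102759549-102759792 had 3.47 and 5.19. Of the shared sites, 10 of 39 (25.6%) had peaks in both quiescent libraries and in only 1 activated library, beside 12.0% of shared sites in the genome, and 2 (5.13%) had the reverse, beside 10.4%. The library that lacked the peak was activated replicate 2 at 12 of the 14 sites with only 1 activated peak.

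H3K4me3, which marks active and poised promoters, lay within 1 kb of a TSS in both states at 7 of the 10 genes, beside 59.9% of all protein-coding genes. At *Aqp4* and *Clu* it was called in quiescent NSPCs alone, a pattern found at 1.31% of protein-coding genes, and at *Gfap* in neither state. The quiescent regions at a TSS of *Aqp4* and *Clu* had a −log10 q of 8.29 and 8.09, below the stricter limit of 10. At that limit, 6 genes had H3K4me3 in both states, since the activated *S100b* region had a −log10 q of 2.40. The 13 quiescent regions of the 10 genes included 3 with no activated region, 2 at *Aqp4* and 1 at *Clu*, where 9.11% of quiescent regions in the genome had no partner. All 3 had a fold enrichment of 3.51 to 4.72, low beside the median of 28.3 over all quiescent regions. Among the 10 pairs of regions, and relative to the median ratio of 1.08 over 15602 pairs, 1 was at least 1.5 times higher in quiescent NSPCs (*S100b*, beside 3.37% of pairs) and 1 at least 1.5 times higher in activated NSPCs (the intronic *Aldh1l1* region, beside 2.83%). A width at least 1.5 times larger in quiescent NSPCs was found at 4 pairs, beside 6.45% of all, the promoters of *S100b*, *Slc1a3* and *Slc1a2* and a weak region downstream of *Slc1a3*. With 1 library per state, these ratios have no replicate check.

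**Figure D5:**
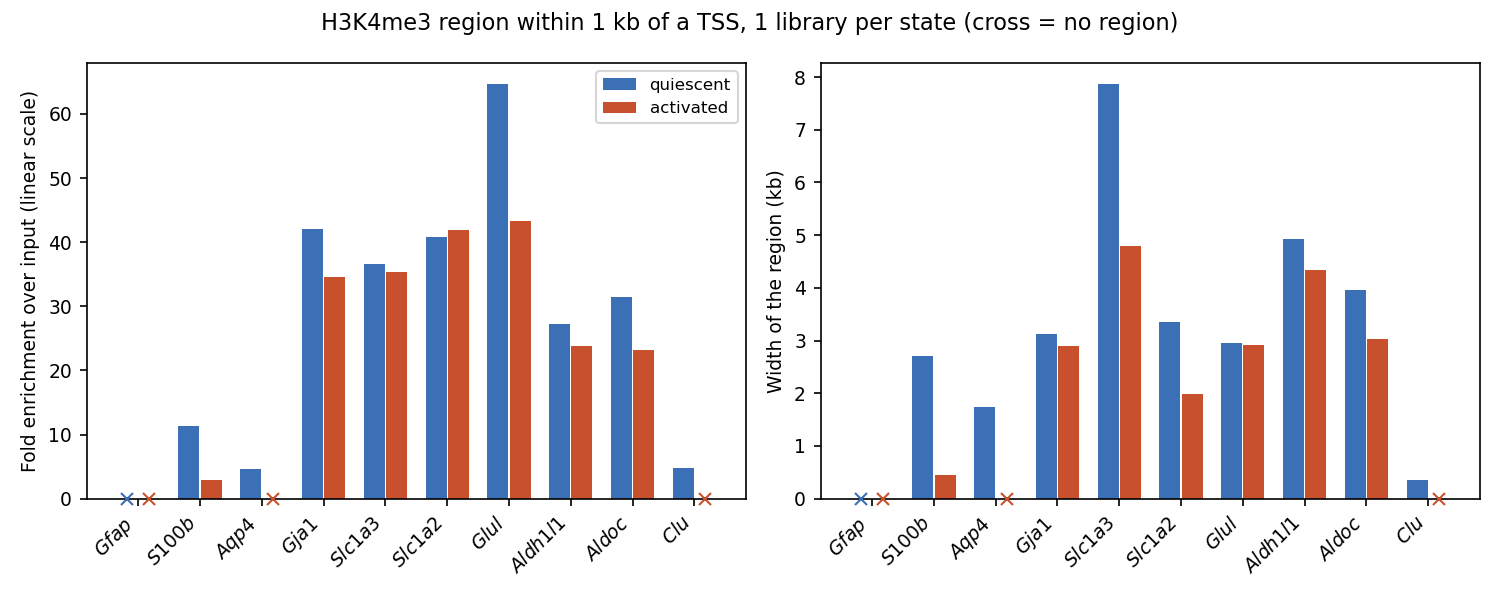
Fold enrichment over input (left) and width in kb (right) of the H3K4me3 region within 1 kb of a TSS of each gene in quiescent and activated NSPCs, 1 library per state; a cross marks no region. *S100b* was 11.3 in quiescent and 2.87 in activated NSPCs, *Glul* was the highest at 64.7 and 43.4, and *Aqp4* and *Clu* had a region in quiescent NSPCs alone.

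Motifs were searched as exact letters on both strands in windows of up to 100 bases on each side of each summit. The short NFI element TTGGC was found in 32 of the 91 windows (35.2%), beside 44.7% of all 108367 windows, and in 5 of the 10 quiescent-specific ones, beside 54.2% of the 6787 quiescent-specific sites of the genome. The full NFI palindrome, in which that element and its reverse complement stand 5 bases apart, was in none of the 91 and in 0.105% of all. The STAT motif was in 5 of the 91 windows (5.49%, beside 5.39%), and in 2 of the 10 quiescent-specific windows, both upstream of the water channel gene, beside 6.63% of quiescent-specific sites in the genome. The SMAD1/5 motif GGCGCC was in 5 of the 91 (5.49%, beside 6.20%), and in 2 of the 10 quiescent-specific windows, both upstream of the same gene, beside 3.51% of quiescent-specific sites in the genome. The AP-1 motif was in 3 windows (3.30%, beside 5.49%), at *Gja1*, *Aldh1l1* and *Clu*, and in 0 of the 10 quiescent-specific ones, beside 4.80%. The RBPJ motif TGGGAA was in 19 (20.9%, beside 19.1%), and the SOX motif, ACAAAG or ACAATG or ACAATA, was in 31 (34.1%, beside 32.6%). Of the 10 quiescent-specific windows, 3 held the RBPJ motif and 2 the SOX motif, beside 19.8% and 33.1% of quiescent-specific sites in the genome. A match is a run of letters and not evidence of binding.

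Other genes of astrocytes and radial glia were read in the same way from a list of 30. They had 195 sites, of which 93 had a peak in at least 2 quiescent and activated libraries, and of these 13 (14.0%) were quiescent-specific and 10 (10.8%) activated-specific. Both shares were near those of the genome. Quiescent-specific sites were found at 9 of the 30 genes, and *Agt*, *Ndrg2*, *Slc4a4* and *Tnc* had 2 each. *Tnc*, which encodes the matrix protein tenascin-C of radial glia, also had 4 of the 10 activated-specific sites. A promoter peak was found at 24 and 25 of the 30 genes (quiescent), 21 and 22 (activated) and 30 and 29 (reactivated), and H3K4me3 at 24 in quiescent and 21 in activated NSPCs.

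Markers of the cultured cells and of other cells were checked at their promoters. All 5 markers of neural stem and progenitor cells (*Sox2*, *Nes*, *Pax6*, and *Vim* and *Fabp7*, which are also in the list of 30) had a promoter peak in every ATAC-seq library and H3K4me3 in both states. Of 8 oligodendrocyte lineage genes, 3 or 4 had a promoter peak in every library and 4 had H3K4me3, and the 27 sites of these genes seen in at least 2 libraries held 1 quiescent-specific (3.70%) and 3 activated-specific (11.1%) sites, beside 14.7% and 9.97% of all such sites. Of 8 neuronal genes, 3 to 6 had a promoter peak and 6 had H3K4me3 in both states, and 4 of their 22 such sites (18.2%) were quiescent-specific and 4 activated-specific, so that their quiescent-specific share was close to the 20.0% of the 10 genes. Of 6 microglial genes, 1 or 2 had a promoter peak and none had H3K4me3, and of 5 endothelial genes up to 2 had a peak and 1 had H3K4me3. Quiescent-specific sites were 1 of 4 at the microglial, 1 of 10 at the endothelial and 1 of 20 at the stem and progenitor genes, and activated-specific sites were 0, 2 and 4 in the same order. The part that a change in cell types had in the values above was not tested.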

How the data were processed

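The analysis started from the peak lists that the authors deposited, 6 for ATAC-seq and 2 for H3K4me3. Per the labels and methods, ATAC-seq reads were trimmed with Trim Galore 0.4.0, aligned to mm10 with Bowtie2 2.2.5, cleared of duplicates with Picard 1.88 and SAMtools 1.3.1, and called per library with MACS at an FDR of 0.05, without pooling replicates. Names in the deposited peak lists mark the reactivated libraries as downsampled, to a depth not given in the sources used here. H3K4me3 regions were called as broad peaks against input at q of 0.05 with a broad cutoff of 0.01. The deposited values are the fold enrichment of the pileup over local background, a ratio that is not scaled between libraries, −log10 p and q values, which the authors' caller gave per library and which grow with depth, a deposited score derived from the −log10 q value, and the summit position within the peak. Inputs were not used here.

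Peaks that overlapped or abutted were merged into sites with Python 3.11.15, numpy 2.4.6, pandas 2.3.3 and scipy 1.17.1, and plots were drawn with matplotlib 3.10.9. A site took the fold enrichment of its strongest peak in each library. The pileup at a summit was recovered from the fold enrichment and the −log10 p value within a tolerance of 0.1%, and its exact Poisson 95% interval covers counting error only. The read depth of a library is not given in the lists, so precision is stated by pileup. TSSs and gene bodies came from GENCODE M21. "Promoter" means a summit within 1 kb of a TSS, and promoter windows that were printed exclude exons. Sequences were read from the mm10 assembly of RefSeq. Scripts were tested on simulated data.

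The 10 genes, the lists of other genes and the motifs were chosen with earlier results of these data known. Sites were named by rule: those at a TSS, those specific to a state, and up to 2 per gene of the sites seen only in reactivated NSPCs and of the shared sites that did not overlap between states, by percentile of fold enrichment. Further shared sites were named after their values were seen. Results for 1 motif and 1 listed gene are not reported here. Alternatives were stricter peaks, lists of equal length, other merging and gene windows, other scalings and leaving out each library. No test was run, because a state had 2 libraries or 1.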

Additional observations from a re-analysis of the deposited data

How the results depend on the processing

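Of 66 counts recomputed under other settings that kept all libraries, 53 stayed within 1.5 times the reported count and 13 did not. Shares over all sites were computed only for the library median, the genome-wide background and the comparison within replicate numbers. For the other settings, and with a library left out, the counts have no background. With peaks at a −log10 q of at least 10, 25 sites were shared, 15 were open in all 6 libraries, 7 were open in reactivated NSPCs only and 1 common site was higher in quiescent NSPCs. A count within 1.5 times did not mean the same sites. The 7 sites that were quiescent-specific at that limit held only *Aqp4* sites from the reported 10. The others were *S100b* and *Gja1* sites reported as shared. With lists of equal length (47037 peaks), 1 site was open in reactivated NSPCs only. With a window of 10 kb around the gene, 6 sites were quiescent-specific and 0 activated-specific. With no condition on the nearest TSS, 3 were activated-specific, 27 were open in reactivated NSPCs only and 16 common sites were higher in activated NSPCs. The count of common sites higher in quiescent NSPCs was 8 after scaling by the library median, 5 by percentile within the list and 0 by pileup over the genome-wide background. The last scale was chosen after seeing the data, and under it 10 of the 23 common sites were higher in activated NSPCs. On that scale, 8.07% of 23245 such sites in the genome were higher in quiescent and 44.1% in activated NSPCs. The cause of these differences was not tested.

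Leaving out each library in turn gave 10 to 18 quiescent-specific and 1 to 4 activated-specific sites, 27 to 39 shared sites, 23 to 31 sites open in all libraries kept, 15 to 27 open in reactivated NSPCs only, 4 to 12 quiescent-specific sites also open after reactivation, and 3 to 9 common sites higher in quiescent and 10 to 17 higher in activated NSPCs. For young against old NSPCs, the methods used replicate as a block to model batch effects of library preparation. Replicate numbers are not stated to pair quiescent with activated libraries. The differences between replicates 1 and 2 in quiescent and in activated NSPCs had a correlation of 0.00 across the 23393 sites open in both states, which share their libraries. Compared within each replicate number (a replicate block chosen after seeing the data), 4 common sites were higher in quiescent and 12 in activated NSPCs in both pairs, beside 16.7% and 46.9% of such sites in the genome. Sites with a pileup under 16 to 25 reads could not be seen.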
